A study of Mus musculus with 6 samples.

Results

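The *Cdkn1* and *Cdkn2* genes of the mouse encode inhibitors of the cyclin-dependent kinases, and the RNA levels were compared between epidermal progenitor cells labelled control and those labelled triple knockout of Polycomb genes. The members were taken by gene name (*Cdkn1a*, *Cdkn1b*, *Cdkn1c*, *Cdkn2a*, *Cdkn2b*, *Cdkn2c* and *Cdkn2d*), and each of the 7 was found among the 38258 genes measured. RNA-seq libraries were made from back skin of newborn mice at postnatal day 0, from cells that carried EpCAM and Sca1 and were high in α6-integrin, a sort that enriches the basal layer between hair follicles. The control group holds 3 libraries labelled only as control, and the other group holds 3 libraries with the genotype label Eed -/- Ring1a-/- Ring1b-/-. The labels do not give the alleles that the controls carry, the promoter or Cre line behind the deletions, or whether animals were pooled. Nor do they say whether each replicate was its own animal. The p-values therefore rest on variation among these 6 libraries, part of which may be technical.

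Cyclin-dependent kinases drive the cell through its cycle when bound to cyclins, and the inhibitors hold them back. The Cip/Kip proteins (p21 from *Cdkn1a*, p27 from *Cdkn1b* and p57 from *Cdkn1c*) bind complexes of several cyclins with their kinases. The INK4 proteins (p15 from *Cdkn2b*, p16 from *Cdkn2a*, p18 from *Cdkn2c* and p19 from *Cdkn2d*) bind Cdk4 and Cdk6 alone and keep them from D-type cyclins, so that the retinoblastoma protein stays active. The *Cdkn2a*–*Cdkn2b* locus is a textbook target of Polycomb repression, in which Polycomb repressive complex 2, with Eed as a core subunit, methylates histone H3 and Polycomb repressive complex 1, with Ring1a or Ring1b as its ligase, modifies histone H2A. In epidermis, p21 and p57 are known from keratinocytes that leave the cycle to differentiate.

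Values are normalized counts as the authors deposited them, which summed to between 21896285 and 29805729 per library. A log2 change is the labelled triple-knockout mean minus the control mean of log2(normalized count + 1), with its SE, and understates the change of low genes. A gene passed at a limma p below 0.05 after Benjamini-Hochberg adjustment over the 23006 genes with a mean of at least 10. The targeted genes did not all follow the labels. *Ring1* stood at 11.8, 8.72 and 23.1 in controls 1 to 3 and at 67.7, 104 and 112 in labelled triple knockouts 1 to 3, and *Rnf2* (Ring1b) did not pass (limma adjusted p = 0.417). *Eed* was lower (835 ± 159 against 476 ± 115, SD, n = 3; limma adjusted p = 0.0144), a call lost when certain libraries were left out. The deleted exons are not given in the sources used here, so RNA from outside them would check nothing, and the groups are called by their labels throughout. Markers of the sorted basal cells were present in every library but differed between the groups. Of 9 tested, 7 fell and 2 rose (median log2 change −0.88), beside 15.3% lower and 20.5% higher over all genes tested. Their summed level was 383124 to 492277 in controls and 194141 to 206614 in labelled triple knockouts. The basal keratin gene *Krt5* was 1.87-fold lower (limma adjusted p = 0.00317) and the sort marker *Itga6* 3.10-fold lower (limma adjusted p = 0.000133). The genes of the other sort markers were higher, *Ly6a* (Sca1) 8.05-fold (limma adjusted p = 2.64e-05) and *Epcam* 1.82-fold (limma adjusted p = 0.00578). Their part in the inhibitor values was not tested. The data come from bulk RNA, in which fewer cells of a type and less RNA per cell cannot be told apart.

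Of the 7 inhibitor genes, 4 rose, 2 fell and 1 did not pass. Over all genes tested, 20.5% were called higher and 15.3% lower (35.8% in either direction). The rises were *Cdkn2a* and *Cdkn2b*, which were near 0 in controls, and *Cdkn1a* and *Cdkn1c*, which controls already expressed. The falls were *Cdkn1b* and *Cdkn2c*, and *Cdkn2d* did not pass. The groups did not overlap for 6 of the 7 members, as for 49.1% of all genes tested. *Cdkn2a* and *Cdkn2b* passed the filter on low values only through the labelled triple knockouts, and 67.6% of the 1347 tested genes with a control mean below 10 were called higher. By an exact permutation test (two-sided), those 6 members each had p = 0.1, the smallest that 3 against 3 libraries allow, and *Cdkn2d* had p = 0.2.

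**Figure D1:**
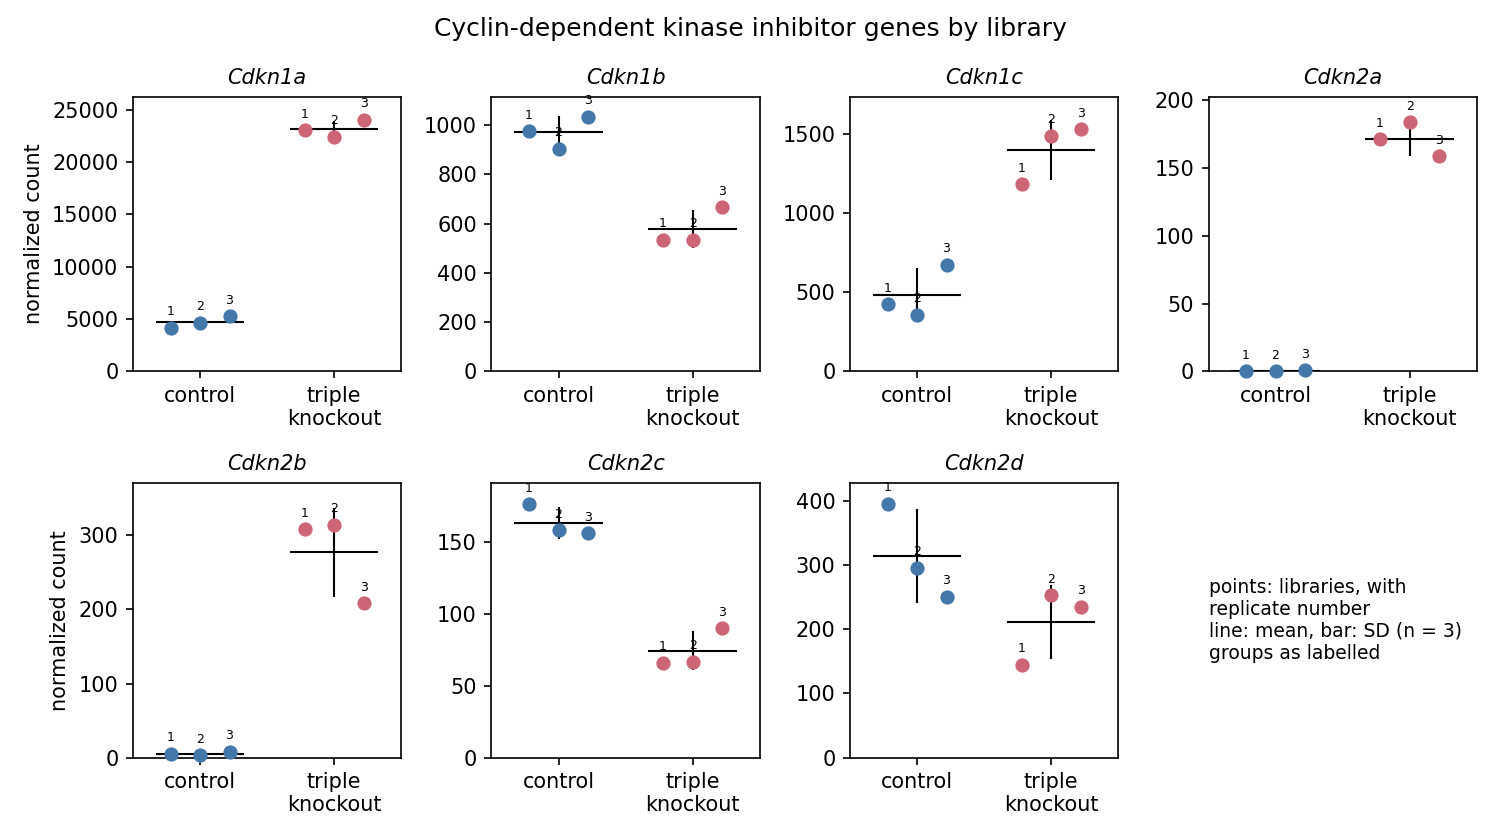
Normalized count (vertical axis, from 0, a separate scale for each gene) of the 7 inhibitor genes in the 3 libraries labelled control and the 3 labelled triple knockout. Points are libraries with their replicate number, the horizontal line is the mean and the bar the SD (n = 3). The groups are apart for every gene but *Cdkn2d*, where control 3 (251) lies below labelled triple knockout 2 (253).

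*Cdkn1a* (ENSMUSG00000023067.14, GRCm38 chromosome 17, 29090976 to 29100727, plus strand) encodes p21, the inhibitor that the tumour suppressor p53 induces. Its normalized counts were 4176, 4665 and 5256 in controls 1 to 3 and 23053, 22431 and 24029 in labelled triple knockouts 1 to 3. Every labelled triple knockout lay far above every control, with little spread inside either group. The mean rose 4.93-fold, from 4699 ± 541 to 23171 ± 805 (SD, n = 3), a log2 change of 2.31 ± 0.12 (limma adjusted p = 3.34e-06). Of all genes tested, 7.14% had a larger rise. On its flanks, the noncoding RNA gene *Trp53cor1* (lincRNA-p21) did not pass (34.3 ± 9.60 against 39.9 ± 15.8, limma adjusted p = 0.736), and *Rab44* rose from 1.49 ± 1.45 to 36.8 ± 17.1 (limma adjusted p = 0.00184). *Rab44* passed the filter on low values only through the labelled triple knockouts. Of tested genes with a control mean below 10, 67.6% were called higher. An unclassified antisense model, *AC167363.2*, overlaps the gene on the minus strand and rose from 31.2 ± 8.48 to 132 ± 26.7 (limma adjusted p = 0.000617). The strand setting of the counting was not stated in the labels, so reads from any exon bases that it shares with *Cdkn1a* may not be told apart.

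RefSeq lists 2 start sites for *Cdkn1a*, and their promoters (GRCm38.p6, plus strand, 250 bases before to 50 after the start) are shown because p53 response elements are a known feature of this gene. Capitals mark the GC box GGGCGG, the letters TATAA and the p53 element, on either strand.
Cdkn1a upstream promoter (chr17:29090729-29091028): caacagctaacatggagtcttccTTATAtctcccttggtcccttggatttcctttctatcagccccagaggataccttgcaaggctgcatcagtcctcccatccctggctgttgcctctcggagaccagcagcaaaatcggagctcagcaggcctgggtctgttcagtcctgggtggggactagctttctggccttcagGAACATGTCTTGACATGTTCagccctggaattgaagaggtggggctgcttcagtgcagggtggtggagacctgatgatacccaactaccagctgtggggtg
Cdkn1a downstream promoter (chr17:29093519-29093818): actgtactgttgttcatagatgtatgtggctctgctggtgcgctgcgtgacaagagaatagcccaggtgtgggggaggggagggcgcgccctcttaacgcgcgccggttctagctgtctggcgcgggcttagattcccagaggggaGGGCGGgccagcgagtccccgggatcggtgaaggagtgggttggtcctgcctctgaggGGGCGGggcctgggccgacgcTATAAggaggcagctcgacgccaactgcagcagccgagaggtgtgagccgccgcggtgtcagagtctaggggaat
The upstream window holds 1 p53 element, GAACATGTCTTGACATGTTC, searched as a pair of adjacent p53 decamers with at most 1 mismatch, a tolerance chosen with this sequence in view. Of 32851 RefSeq promoter windows of the same length, 22 (0.067%) held such an element. Both windows hold TATAA once, as 24.9% of windows do at least once, and the downstream one holds 2 GC boxes, which 35.7% of windows have. The upstream window has 2 CpG dinucleotides and the downstream one 23, where the median over all windows is 7. The deposited values are totals per gene, so they do not tell which start site the reads came from.

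*Cdkn1b* (ENSMUSG00000003031.14, chromosome 6, 134920401 to 134925513, plus strand) encodes p27, known from cells that leave the cycle. It stood at 976, 904 and 1034 in controls 1 to 3 and at 534, 535 and 667 in labelled triple knockouts 1 to 3. The lowest control was above the highest labelled triple knockout. The mean was 1.68-fold lower, 579 ± 76.4 against 972 ± 65.3, a log2 change of −0.75 ± 0.15 (limma adjusted p = 0.0043). *Cdkn1b* therefore went the opposite way from *Cdkn1a* within the same libraries. *Lockd*, a long noncoding RNA gene that starts 3579 bases beyond it, fell from 458 ± 32.4 to 199 ± 46.4 (log2 change −1.22 ± 0.21, limma adjusted p = 0.00182).

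*Cdkn1c* (ENSMUSG00000037664.13, chromosome 7, 143458339 to 143461050, minus strand) encodes p57 and is imprinted, expressed from the maternal copy. Its normalized counts were 425, 357 and 673 in controls 1 to 3 and 1183, 1489 and 1532 in labelled triple knockouts 1 to 3. Control 3 was the highest control and still lay below each labelled triple knockout. The mean rose 2.89-fold, from 485 ± 166 to 1401 ± 190, a log2 change of 1.57 ± 0.23 (limma adjusted p = 0.000819). Removing GC content and transcript length from each library brought the log2 change down to 0.94, still past the threshold (limma adjusted p = 0.00502). Control 3 also had the highest summed level over 8 fibroblast markers, 32890 against 9748 and 13987 in controls 1 and 2. In labelled triple knockouts that sum was 10081 to 15528. Control 3 was the highest control for summed leukocyte, endothelial, adipocyte and erythroid markers too, and the lowest for muscle markers. The part of such cells in the *Cdkn1c* value was not tested. Without control 3 the log2 change of *Cdkn1c* was 1.83 (limma adjusted p = 9.89e-06).

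The other genes of the imprinted domain around *Cdkn1c* moved in both directions. Among 9 tested genes, whose median log2 change was 1.26, 4 were higher and 1 lower, and the other 4 missed the threshold. Over all genes tested, the shares were 20.5% higher and 15.3% lower. The placental growth regulator *Phlda2* rose from 81.1 ± 53.4 to 206 ± 41.9 (limma adjusted p = 0.0177) and the tetraspanin gene *Cd81* from 2696 ± 808 to 8698 ± 968 (limma adjusted p = 0.000198). The transcription factor gene *Ascl2* fell from 85.9 ± 29.7 to 11.5 ± 4.73 (limma adjusted p = 0.000703). *Kcnq1ot1*, the long noncoding RNA that silences the domain on the paternal copy, did not pass (5675 ± 941 against 5038 ± 719; log2 change −0.17, 95% interval −0.53 to 0.20). The nearest tested gene on one side, *Slc22a18*, did not pass either (83.2 ± 61.7 against 129 ± 23.9, limma adjusted p = 0.183). On the other side, *Kcnq1* was at 0, 68.2 and 0 in controls 1 to 3. It was at 3.25, 19.0 and 18.3 in labelled triple knockouts 1 to 3 and did not pass (limma adjusted p = 0.478).

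**Figure D2:**
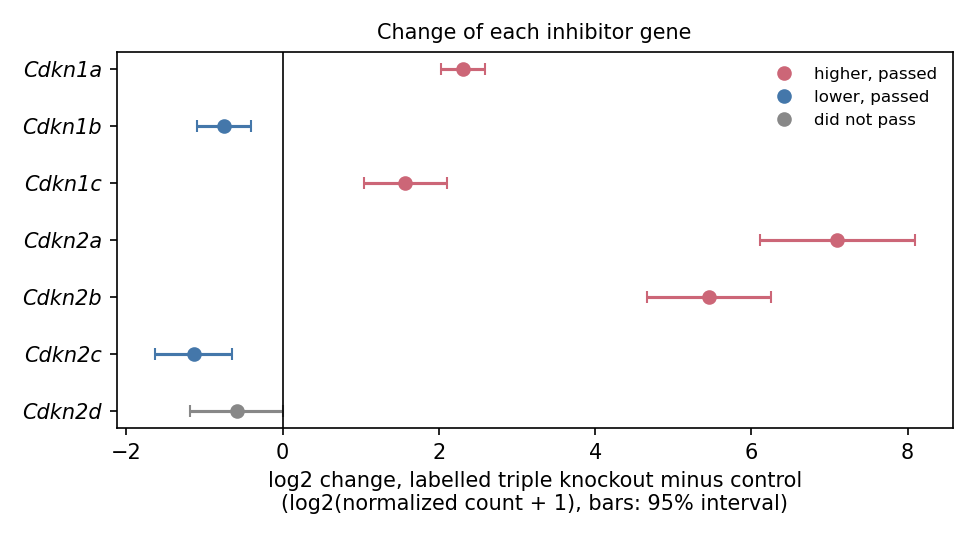
Log2 change (horizontal axis, labelled triple knockout minus control, log2(normalized count + 1)) of the 7 inhibitor genes (vertical axis) with its 95% interval from limma. Red points rose, blue points fell and the grey point did not pass. *Cdkn2a* (7.10) and *Cdkn2b* (5.46) lie farthest to the right, and the interval of *Cdkn2d* reaches from −1.19 to 0.01.

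*Cdkn2a* (ENSMUSG00000044303.6, chromosome 4, 89274471 to 89294653, minus strand) encodes p16 and, from an upstream first exon in another reading frame, Arf, which stabilises p53. It was listed at 0 in controls 1 and 2 and at 0.987 in control 3, about what 1 read was worth there. In labelled triple knockouts 1 to 3 it stood at 171, 184 and 159. The 3 labelled triple knockouts were thus close to each other and apart from controls with at most a trace. The log2 change was 7.10 ± 0.44 (limma adjusted p = 6.52e-06). Since it depends on the pseudocount, it ranged from 5.05 with a pseudocount of 5 to 7.90 with 0.5. Of all genes tested, 0.161% had a larger rise. The table sums the p16 and Arf transcripts, which share exons, so the levels of each are not resolved.

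*Cdkn2b* (ENSMUSG00000073802.5, chromosome 4, 89306299 to 89311039, minus strand), the next gene, encodes p15, which transforming growth factor beta induces in epithelial cells. It stood at 5.25, 3.26 and 8.03 in controls 1 to 3 and at 308, 314 and 208 in labelled triple knockouts 1 to 3. Labelled triple knockout 3 was the lowest of its group and still far above the controls. The mean rose from 5.51 ± 2.39 to 277 ± 59.7, 50.2-fold, with a log2 change of 5.46 ± 0.35 (limma adjusted p = 7.66e-06). The gap between *Cdkn2a* and *Cdkn2b* is 11646 bases. The tested genes that flank the pair did not pass. The long noncoding RNA gene *Gm12606*, 1068 bases from *Cdkn2a*, stood at 26.3 ± 15.9 against 38.3 ± 3.93 (log2 change 0.69 ± 0.43, limma adjusted p = 0.249). *Dmrta1*, 368397 bases beyond *Cdkn2b*, stood at 80.6 ± 12.1 against 68.9 ± 9.47 (log2 change −0.22 ± 0.24, limma adjusted p = 0.51).

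The promoters of this pair are shown because both genes went from near 0 to a clear level together. The windows are RefSeq's (GRCm38.p6, minus strand, 5′ to 3′), with the GC box GGGCGG in capitals.
Cdkn2a upstream (Arf) promoter (chr4:89294570-89294869): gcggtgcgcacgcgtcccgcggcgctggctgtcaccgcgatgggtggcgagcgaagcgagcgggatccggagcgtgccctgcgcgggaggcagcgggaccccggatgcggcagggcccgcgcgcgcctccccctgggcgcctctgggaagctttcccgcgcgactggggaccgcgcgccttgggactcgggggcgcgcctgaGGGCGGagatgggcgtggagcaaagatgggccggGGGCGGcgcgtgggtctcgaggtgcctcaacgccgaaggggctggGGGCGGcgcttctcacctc
Cdkn2a downstream (p16) promoter (chr4:89282143-89282442): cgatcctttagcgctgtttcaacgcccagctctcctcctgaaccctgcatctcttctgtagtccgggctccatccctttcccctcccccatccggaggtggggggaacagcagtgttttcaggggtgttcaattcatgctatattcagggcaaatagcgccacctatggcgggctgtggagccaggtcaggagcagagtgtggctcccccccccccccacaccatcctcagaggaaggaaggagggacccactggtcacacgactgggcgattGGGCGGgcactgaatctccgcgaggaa
Cdkn2b promoter (chr4:89310983-89311282): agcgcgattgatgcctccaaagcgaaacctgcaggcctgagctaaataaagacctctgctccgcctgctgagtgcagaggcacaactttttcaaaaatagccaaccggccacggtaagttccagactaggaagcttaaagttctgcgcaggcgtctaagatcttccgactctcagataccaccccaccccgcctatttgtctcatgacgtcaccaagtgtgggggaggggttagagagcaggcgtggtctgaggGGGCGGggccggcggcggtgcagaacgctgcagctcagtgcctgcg
The Arf window holds 45 CpG dinucleotides, and 98.1% of all windows have fewer. The p16 window holds 12 and the *Cdkn2b* window 18, more than in 60.4% and 70.3% of windows. GC boxes numbered 3 in the Arf window and 1 in each of the other two. No p53 element, TATAA or E2F site (TTTCGCG or TTTGGCG, either strand) was found in these windows, which says nothing of the factors themselves. Other forms of the E2F site were not searched for, so the windows may still hold one.

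*Cdkn2c* (ENSMUSG00000028551.14, chromosome 4, 109660876 to 109667189, minus strand) encodes p18 and is known as a gene that E2F factors switch on in cycling cells. It stood at 176, 158 and 156 in controls 1 to 3 and at 66.0, 66.8 and 89.9 in labelled triple knockouts 1 to 3. All 3 labelled triple knockouts were lower than every control. The mean was 2.20-fold lower, 74.2 ± 13.6 against 163 ± 11.1, a log2 change of −1.14 ± 0.22 (limma adjusted p = 0.0033). With GC content and transcript length regressed out it was −1.71 (limma adjusted p = 0.000353). The promoter window of its downstream start is shown because it holds an E2F site (capitals, TTTCGCG), which 2.37% of all windows have.
Cdkn2c downstream promoter (chr4:109665323-109665622, minus strand): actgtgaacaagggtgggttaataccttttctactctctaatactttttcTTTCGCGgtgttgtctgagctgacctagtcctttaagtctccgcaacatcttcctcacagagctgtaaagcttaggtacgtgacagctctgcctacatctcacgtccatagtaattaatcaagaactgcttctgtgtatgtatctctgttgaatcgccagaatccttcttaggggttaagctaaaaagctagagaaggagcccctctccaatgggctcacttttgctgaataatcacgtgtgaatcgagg
The upstream window of *Cdkn2c* holds 4 GC boxes and no E2F site of the forms searched for (TTTCGCG or TTTGGCG). The part of E2F factors in the *Cdkn2c* value was not tested.

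*Cdkn2d* (ENSMUSG00000096472.2, chromosome 9, 21288410 to 21291407, minus strand) encodes the INK4 protein p19, distinct from Arf. It stood at 396, 296 and 251 in controls 1 to 3 and at 145, 253 and 235 in labelled triple knockouts 1 to 3. Control 3 and labelled triple knockout 2 overlapped. The log2 change was −0.59 ± 0.26 (95% interval −1.19 to 0.01, limma adjusted p = 0.116). It passed with quantile normalization (−0.80, limma adjusted p = 0.0361), with GC content and transcript length regressed out (−0.91, limma adjusted p = 0.0241) and without control 3 (−0.74, limma adjusted p = 0.0443). The gene 441 bases away on the same strand, *Kri1*, fell from 472 ± 88.2 to 272 ± 12.5 (limma adjusted p = 0.0102).

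Levels of different genes were set side by side per kilobase of annotated exon. In controls *Cdkn1a* had the highest level per kilobase (1323 ± 152), followed by *Cdkn1c* (238 ± 81.4), *Cdkn1b* (213 ± 14.3) and *Cdkn2d* (199.8 ± 47.0), which overlapped with the next in order over libraries. *Cdkn2c* (60.9 ± 4.14), *Cdkn2b* (3.97 ± 1.72) and *Cdkn2a* (0.281 ± 0.486) followed below them without overlap. In labelled triple knockouts *Cdkn1a* (6522 ± 227) and *Cdkn1c* (687 ± 93.2) led, and *Cdkn2b* (199 ± 43.0), *Cdkn2a* (146 ± 10.8), *Cdkn2d* (134 ± 36.9) and *Cdkn1b* (127 ± 16.8) came next with overlapping ranges. *Cdkn2c* (27.6 ± 5.06) came last. *Cdkn1a* made up 64.8% ± 3.32 of the level per kilobase of all 7 genes in controls and 83.2% ± 1.46 in labelled triple knockouts.

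The make-up of the INK4 genes differed between the groups. In these sums *Cdkn2a* stands for its whole gene total, Arf transcripts included, although Arf is not an INK4 protein. The summed level per kilobase of the 4 genes was 321, 250 and 224 in controls 1 to 3 and 485, 569 and 468 in labelled triple knockouts 1 to 3, a ratio of means of 1.91. *Cdkn2d* and *Cdkn2c* made up 74.99% ± 3.63 and 23.3% ± 2.73 of that sum in controls. *Cdkn2a* and *Cdkn2b* together made up 1.18%, 0.941% and 2.95% in controls 1 to 3 and 75.9%, 67.4% and 60.9% in labelled triple knockouts 1 to 3. In the Cip/Kip family the summed level rose 4.14-fold, and the share of *Cdkn1b* was 12.1% ± 1.17 in controls and 1.73% ± 0.159 in labelled triple knockouts.

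**Figure D3:**
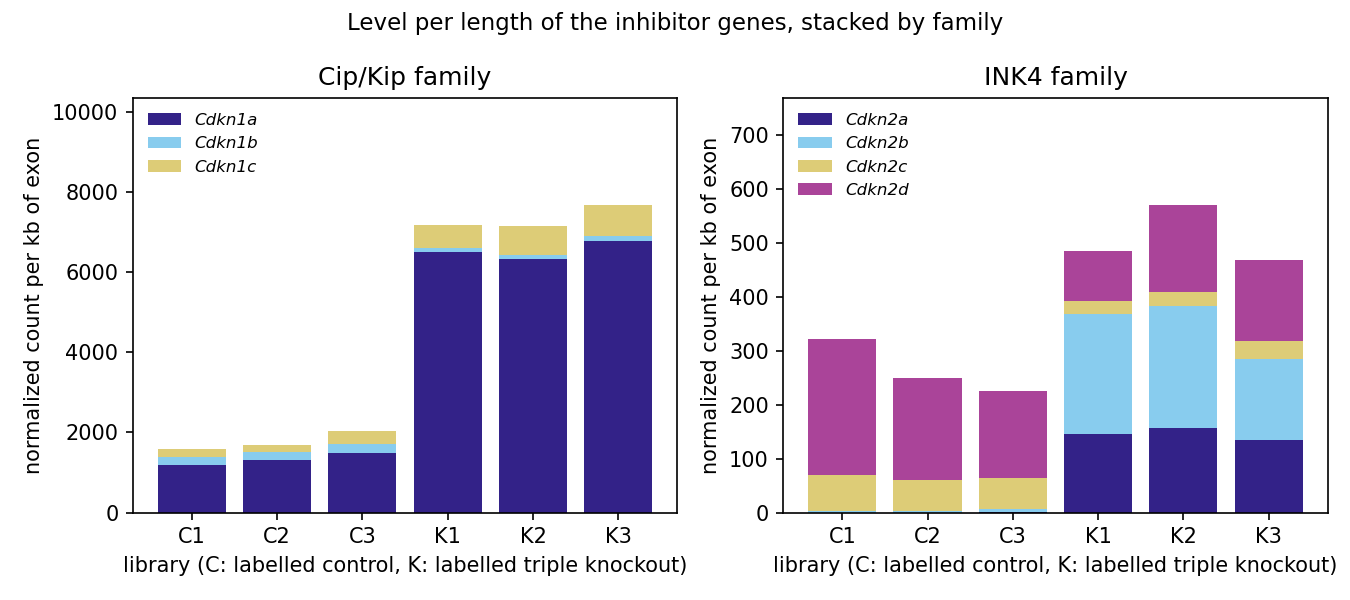
Normalized count per kilobase of exon (vertical axis, from 0, separate scales) of the Cip/Kip genes (left) and INK4 genes (right), stacked for each library (C1 to C3 labelled control, K1 to K3 labelled triple knockout). *Cdkn1a* fills most of each Cip/Kip bar, and *Cdkn2a* with *Cdkn2b* fills 60.9% to 75.9% of the right-hand bars of the labelled triple knockouts against 0.941% to 2.95% in controls, with Arf transcripts counted in *Cdkn2a*.

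Across all genes tested, 20.5% were called higher and 15.3% lower, with a median log2 change of 0.01. Among 15 tested genes of cyclins, cyclin-dependent kinases and their partners, 3 were called higher and 7 lower (median log2 change −0.38). Those that rose were *Ccnd1* (3360 ± 282 to 12156 ± 1410, limma adjusted p = 1.24e-05), *Ccnd2* (20983 ± 4049.7 to 35333 ± 3898, limma adjusted p = 0.00459) and *Ccnd3*, which encode the partners of Cdk4 and Cdk6. For *Ccne1*, a cyclin of the entry into S phase, the means were 48.6 ± 20.2 in controls and 77.3 ± 10.8 in labelled triple knockouts, which missed the threshold (limma adjusted p = 0.115). The mitotic cyclin gene *Ccnb1* fell from 1372 ± 167 to 346 ± 40.5 (limma adjusted p = 2.62e-05). *Ccna2*, the cyclin of S phase and G2, fell from 1738 ± 278 to 532 ± 145 (limma adjusted p = 0.00039), and the mitotic kinase gene *Cdk1* from 1156 ± 132 to 389.5 ± 48.8 (limma adjusted p = 0.000106). The direct targets of the INK4 proteins did not pass, *Cdk4* with a log2 change of 0.36 (95% interval −0.20 to 0.92) and *Cdk6* with 0.26 (−0.06 to 0.57).

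Of 17 genes of the pocket proteins, E2F factors and their partners, 2 rose and 6 fell (median log2 change −0.43). The shares over all genes tested were 20.5% higher and 15.3% lower. *Rb1*, the retinoblastoma gene, rose from 609 ± 43.8 to 1217 ± 101 (limma adjusted p = 0.000606), whereas its relative *Rbl1* fell from 973.5 ± 108 to 424 ± 45.9 (limma adjusted p = 0.000439). The E2F genes *E2f8* (1921 ± 145 to 503.5 ± 114, limma adjusted p = 6.69e-05) and *E2f7* (2132 ± 437 to 744 ± 96.0, limma adjusted p = 0.000257) also fell. Of 30 proliferation genes tested, 26 fell and 0 rose by limma, also at an unadjusted p below 0.05, with a median log2 change of −1.46. The mitotic transcription factor gene *Foxm1* fell from 2473 ± 626 to 417 ± 73.0 (limma adjusted p = 2.63e-05). The cycle marker *Mki67* fell from 17333 ± 1750 to 5388 ± 1355 (limma adjusted p = 0.000122), and the replication helicase gene *Mcm6* from 1515 ± 115 to 410 ± 41.7 (limma adjusted p = 2.01e-05).

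*Cdkn1a* is a p53 target, and other p53 targets were mostly higher. Of 22 tested, 16 rose and 3 fell (median log2 change 1.13), beside 20.5% higher and 15.3% lower over all genes tested. Those that fell were *Sesn1* (1484 ± 303 to 491 ± 183, limma adjusted p = 0.00102), *Fas* (235 ± 59.5 to 83.6 ± 8.77, limma adjusted p = 0.00165) and *Trp53inp1* (5006 ± 111 to 3673 ± 378, limma adjusted p = 0.018). The part of p53 in the *Cdkn1a* value was not tested. *Zmat3* rose from 1159 ± 191 to 10245 ± 1245 (limma adjusted p = 2.64e-06), the cyclin G gene *Ccng1* from 1095 ± 418 to 8474 ± 338 (limma adjusted p = 1.78e-05) and *Pmaip1*, the death gene Noxa, from 534 ± 41.3 to 3605 ± 498 (limma adjusted p = 3.51e-06). *Perp*, a desmosomal protein and p53 family target, did not pass (24808 ± 2449 against 21894 ± 1893, limma adjusted p = 0.303). *Trp53* itself did not pass (2410 ± 643 against 2596 ± 264; log2 change 0.13, 95% interval −0.29 to 0.56).

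Of 24 genes known to act on the inhibitors or their genes, 8 rose, 7 fell and 9 did not pass (median log2 change 0.25). Among all genes tested, 20.5% were called higher and 15.3% lower. *Tbx3* and *Tbx2*, repressors known to act on *Cdkn2a* and *Cdkn1a*, rose from 46.9 ± 26.5 to 1910 ± 256 (limma adjusted p = 1.23e-05) and from 17.01 ± 2.68 to 106 ± 24.6 (limma adjusted p = 0.000172). *Foxo1*, a factor that activates *Cdkn1b*, rose from 1206 ± 265 to 2862 ± 498 (limma adjusted p = 0.000966). *Myc*, which represses *Cdkn1a* and *Cdkn2b*, fell from 4087 ± 202 to 1270 ± 184 (limma adjusted p = 3.07e-05). The epidermal factor *Trp63*, known to repress *Cdkn1a* in keratinocytes, fell from 28985 ± 5557 to 7206 ± 1615 (limma adjusted p = 6.5e-05).

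Genes associated with senescence, a lasting arrest in which p16 and p21 are high, split. Of 14 tested, 3 rose and 6 fell (median log2 change −0.04), beside 20.5% higher and 15.3% lower over all genes tested. *Igfbp3*, which encodes a secreted binding protein of insulin-like growth factors, rose from 481 ± 101 to 1069 ± 109 (limma adjusted p = 0.00132). *Lmnb1*, a lamin known to be lost in senescent cells, fell from 959 ± 143 to 483 ± 67.3 (limma adjusted p = 0.00227). The secreted factor genes *Il6* (35.7 ± 33.1 against 31.9 ± 0.948, limma adjusted p = 0.799) and *Il1a* (44.0 ± 19.3 against 48.8 ± 12.3, limma adjusted p = 0.713) did not pass.

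**Figure D4:**
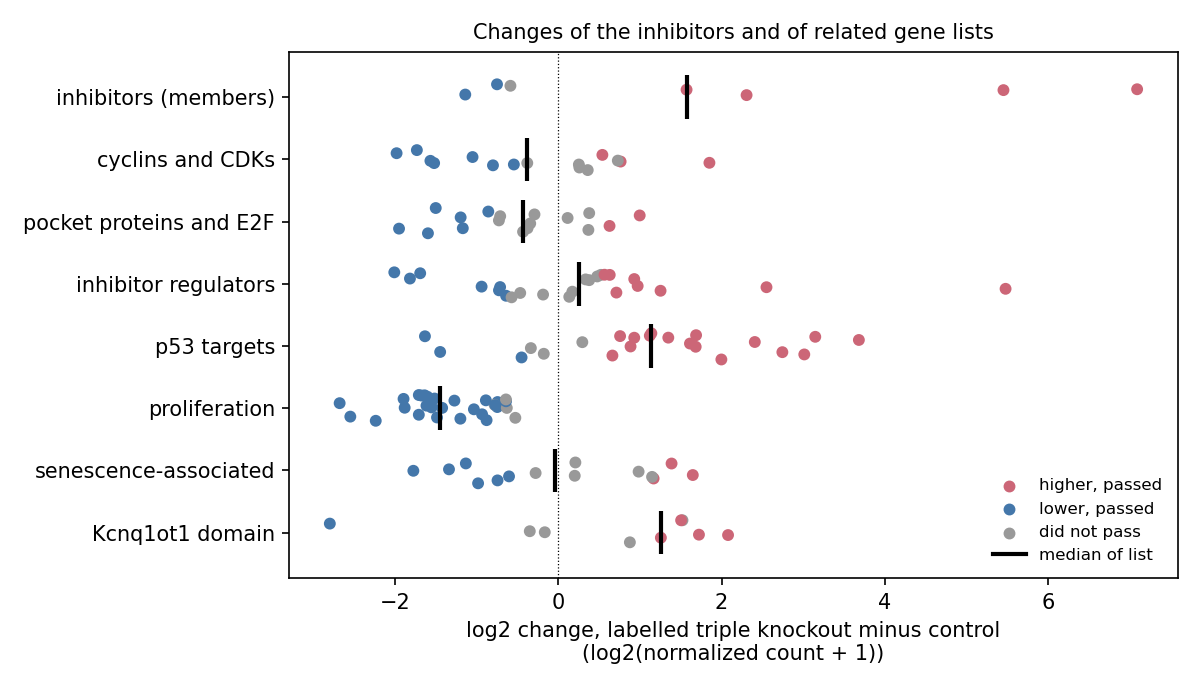
Log2 change (horizontal axis, labelled triple knockout minus control, log2(normalized count + 1)) of each tested gene in the 7 inhibitors and the related lists (vertical axis, points jittered). Red points rose, blue fell and grey did not pass, and black lines are list medians, which run from −1.46 for proliferation genes to 1.57 for the inhibitors.

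Markers of other cells moved in the same libraries as the inhibitors. Their counts stand beside 20.5% higher and 15.3% lower over all genes tested. The Merkel markers *Sox2*, *Isl1* and *Krt20*, the melanocyte markers *Tyrp1*, *Mlana* and *Sox10*, and *Cnfn* had control means below 10. These genes passed the filter on low values only through the labelled triple knockouts. Among tested genes with such control means, 67.6% were called higher. Of 7 tested Merkel cell markers 6 rose, with a summed level over the 8 listed of 404 to 580 in controls and 2869 to 3135 in labelled triple knockouts, while their defining factor *Atoh1*, too low to be tested, was at 0, 0 and 3.02 in controls 1 to 3 and at 0 in every labelled triple knockout. Of 8 melanocyte markers 7 rose (summed level 406 to 579 against 1241 to 1865). Of 12 markers of differentiated epidermis 8 rose and 3 fell, and their log2 changes had a median of 2.56. The cornified envelope genes *Cnfn* (8.53 ± 3.10 to 2092 ± 228, limma adjusted p = 6.42e-07) and *Sprr1a* (223 ± 96.0 to 9322 ± 435, limma adjusted p = 1.89e-06) were among those that rose. The abundant keratin gene *Krt1* fell from 25769 ± 4356 to 4416 ± 392 (limma adjusted p = 5.37e-06), and the summed levels overlapped (38790 to 56510 against 45101 to 46660). Of 12 hair follicle markers 3 rose and 6 fell (median log2 change −0.998; summed level 9880 to 13003 against 12028 to 13872), and the inner root sheath keratin gene *Krt25* was at 55.1, 108 and 216 in controls 1 to 3 and listed at 0 in every labelled triple knockout. Of 8 fibroblast markers 0 rose by limma, also at an unadjusted p below 0.05, and 2 fell. Of 6 tested leukocyte markers 0 passed by limma, with 2 at an unadjusted p below 0.05, and of 4 tested muscle markers 0 passed, with 0 at that level. Of 7 endothelial markers 1 rose and 1 fell, of 4 tested erythroid markers 1 fell, and of 4 tested adipocyte markers 0 passed by limma, with 1 at an unadjusted p below 0.05. The part of any of these cells in the inhibitor values was not tested.

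By correlation over the 6 libraries, the genes most like *Cdkn2a* were *Supt3*, *Tunar* and *Slc35g1*, each with Pearson's r of 0.999 or more on the log2 scale. Those most like *Cdkn1a* were *Igfbp4*, *Ank2* and *Gpm6b*, and those most like *Cdkn2b* were *Elovl4*, *Rcn1* and *Sel1l3*. The libraries form 2 separate groups, so such values mostly reflect the difference between them, and 13.3% of the 12587 genes compared had r of at least 0.95 with *Cdkn2a*.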

How the data were processed

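Total RNA of sorted cells was amplified and sequenced as single reads of 100 nucleotides, per the labels' protocols. The authors deposited normalized counts for each gene in each library (the header's own name for them), handled here as signal values. The submitters' processing notes name kallisto 0.42.5 and DESeq2, with no annotation, strand setting or options. Between 26.0% and 42.3% of low values (at most 20 reads) were whole multiples of 1 read within 0.01 read. Reads could therefore not be recovered, and libraries held roughly 17.8 M to 37.7 M assigned reads. An exact 0 can be a failed estimate.

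All 7 members matched GENCODE M21 (GRCm38) in identifier, coordinates and strand, as did 98.0% of the table. Promoters came from RefSeq (6 of 7 members, 9 windows).

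Values were tested as log2(normalized count + 1) with limma 3.58.1 in R 4.3.3 (trend, robust, no covariate), two-sided, over 23006 genes with a mean of at least 10, with Benjamini-Hochberg adjustment at 0.05; the procedure was tested on simulated data. Groups came from titles. Members, lists, tests and alternatives were chosen with earlier results of these data known. Named genes were the members, the targets and genes drawn from up to 6 called and 4 uncalled per list, nearest tested neighbours and the 3 best-correlated genes. Not all of the listed genes, neighbours and best-correlated genes are given. *AC167363.2*, *Ccnd3*, *Ccne1*, *Epcam*, *Atoh1*, *Sesn1*, *Fas* and *Trp53inp1* were added after their values were seen. The alternatives changed the pseudocount (0.5, 5), the filter (none, or a mean of 50), the scaling (trimmed-mean TMM factors, quantile), limma's options, a replicate block, GC content and transcript length (regressed out with splines), or left out each library.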

Additional observations from a re-analysis of the deposited data

How the results depend on the processing

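The calls of *Cdkn1a*, *Cdkn1b*, *Cdkn1c*, *Cdkn2a*, *Cdkn2b* and *Cdkn2c* kept their direction and passed limma under all 16 alternatives. Leaving out single libraries gave log2 changes of 2.23 to 2.39 for *Cdkn1a*, −0.86 to −0.70 for *Cdkn1b*, 1.38 to 1.83 for *Cdkn1c*, 6.93 to 7.43 for *Cdkn2a*, 5.18 to 5.73 for *Cdkn2b* and −1.29 to −1.07 for *Cdkn2c*. *Cdkn2d* ranged from −0.74 to −0.34 without single libraries and passed without control 3 (−0.74, limma adjusted p = 0.0443). It also passed with quantile normalization (−0.80), with GC content and transcript length removed (−0.91, limma adjusted p = 0.0241) and with that removal plus the replicate block (−0.91, limma adjusted p = 0.0399). *Eed* ranged from −1.01 to −0.67 without single libraries and lost its call without control 2 (limma adjusted p = 0.0523), labelled triple knockout 1 (limma adjusted p = 0.0615) or 3 (limma adjusted p = 0.0543). *Rnf2*, which never passed, turned from −0.24 to 0.085 with GC content and transcript length removed, with or without the replicate block.

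Quantile normalization moved the median log2 change of all genes by −0.18 and the higher calls from 57.3% to 45.6% of calls (4177 higher, 4974 lower). Pocket protein and E2F genes then had 10 lower. They had 1 higher without trend or robust estimation and with GC content and transcript length removed, with or without the block, and 1 to 3 without single libraries. Cyclins and CDKs had 2 to 5 higher and inhibitor regulators 5 to 9 higher without single libraries, the latter 5 without trend or robust estimation. The imprinted domain had 2 lower with TMM factors, quantile normalization, or GC content and transcript length removed. The deviations of same-numbered libraries had r = 0.061, −0.023 and 0.022, and those of differently numbered ones −0.091 to 0.067. These values do not show a pairing by number and cannot exclude one. The replicate block alone gave 4761 higher and 3345 lower genes and changed no call of a member. The cause of these shifts was not tested. Depth limits *Cdkn2a* in controls to a trace of about 1 read.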
